A study of Rattus norvegicus with 39 samples.

Results

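The genes described here are the 28 genes, of 23978 in the count table, that were most strongly and most regularly enriched on the polyribosomes of D2-Cre rats when no drug was given. A gene was kept when its mean level was at least 5 CPM (a gene's counts relative to the library's total count) in the 10 D2 saline libraries, when its mean log2(CPM + 0.5) was at least 0.8 higher in D2 than in D1 saline libraries, and when every D2 saline library lay above every D1 saline library. Adora2a and 2 further identifiers that meet these terms (ENSRNOG00000008428 and ENSRNOG00000008943) were set aside by the rule. The members were thus chosen by the measured saline values of D2 against D1, which are given only as a description. The ketamine libraries took no part in that choice. The saline libraries that fixed the members also serve as the saline arm of the treatment contrasts and in the stage contrasts that hold saline libraries. Since the rule compared D2 with D1 saline libraries of both stages together, genes that vary strongly with stage in saline were less likely to be kept.

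Medium spiny neurons (MSNs) are the GABAergic projection neurons of the nucleus accumbens (NAc), and most express either the dopamine D1 or the dopamine D2 receptor. D2-MSNs project largely to the ventral pallidum, carry the Gi/o-coupled D2 receptor, and are marked by the adenosine receptor encoded by Adora2a, which couples to Gs and opposes D2 signaling at adenylyl cyclase. Dopamine, adenosine and ovarian hormones all act on these cells, and the study asked how their polyribosome-bound mRNA differs after repeated ketamine and across the estrous cycle.

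All animals were female Long-Evans rats heterozygous for Drd1a-iCre (D1-Cre) or Drd2-iCre (D2-Cre), infused in the NAc with an AAV9 vector that makes an HA-tagged ribosomal protein in Cre-expressing cells, so that tagged polyribosomes and their mRNA could be immunoprecipitated (IP). Rats received 6 intraperitoneal injections of saline or of ketamine at 10 mg/kg, an NMDA receptor antagonist, each in proestrus (Pro, when ovarian hormones are typically high) or each in diestrus (Di, when they are typically low), and tissue was taken 4 days after the last session and 30 min after return to the test context. The 39 libraries, 1 per rat, fall into 8 groups of 5 by Cre line, stage and treatment, except for proestrus D2 rats given ketamine, with 4, since 1 library was excluded by the study. Ketamine rats were used for sequencing only if their locomotor response had grown over the sessions, so the ketamine groups are selected animals. The Drd2 promoter is also active in striatal cholinergic interneurons, and no marker of these cells could be paired with an identifier here. Total counts ranged from 2396517 in 1 diestrus D2 saline library (number 39) to 43224256 in 1 proestrus D2 ketamine library (number 22), and the other D2 saline libraries held at least 17320637.

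Identifiers could be paired with symbols for 1966 of the 23978 genes and for only 1 of the 28 members, ENSRNOG00000000321, which is Cd24, a small heavily glycosylated protein anchored at the cell surface and known from immature neurons. The other 27 members are given by their Ensembl identifiers. The stretch of 250 bases before the Cd24 start site is shown because it is the one member promoter that could be matched (1 of 28), from RefSeq on build GRCr8 at chr20:48656227-48656476, plus strand. This is a later build than the mRatBN7.2 transcriptome on which the counts were made. Capitals mark the GC box GGGCGG or its reverse complement CCGCCC, a site that Sp-family factors bind.
Cd24 promoter: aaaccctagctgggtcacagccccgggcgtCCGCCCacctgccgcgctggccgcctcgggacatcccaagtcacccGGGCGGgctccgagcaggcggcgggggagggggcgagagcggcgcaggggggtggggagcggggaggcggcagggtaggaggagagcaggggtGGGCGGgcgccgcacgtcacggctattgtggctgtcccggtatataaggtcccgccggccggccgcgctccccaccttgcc
The GC box matched 3 times in this window, at 220, 174 and 81 bases before the start site, with no overlap between matches, and at least 1 match on either strand was found in 30.5% of the 33469 promoters of the same length. The cAMP response element TGACGTCA and the E-box CACGTG, searched on both strands, matched nowhere in it and are held by 1.59% and 5.59% of those promoters. The window is 75.6% G and C, against a median of 51.2% over all promoters.

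In the saline libraries, which chose them, the members' D2 minus D1 difference ran from 0.80 to 2.08 with a median of 1.07 on the log2(CPM + 0.5) scale, and it was at least 1 for 18 members and at least 2 for 2. Mean levels in D2 saline libraries ran from 5.57 to 2320 CPM: 4 members were under 10 CPM, 16 were between 10 and 100, and 8 were at 100 or more. CPM is not corrected for transcript length, so levels are not ranked between genes. In edgeR's fit of the saline libraries 14.6% of all genes tested were called with D2 higher, and nothing is read from the members' own calls there. No member was absent from D1 libraries, where the mean saline level was between 23.7% and 57.0% of the D2 level, with a median of 45.7%. In bulk IP data, fewer cells of a type and less RNA per cell cannot be told apart.

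The thresholds of the rule fell within a continuous range of values. The smallest saline differences inside were 0.80 (ENSRNOG00000015259), 0.81 (ENSRNOG00000030877) and 0.85 (ENSRNOG00000006979), and 61 genes failed on this difference alone, the nearest at 0.78 (ENSRNOG00000014761). Another 22 genes failed only because 1 or more libraries overlapped, and 3 failed only on level. The lowest D2 saline levels inside were 5.57 (ENSRNOG00000061731), 7.56 (ENSRNOG00000010531) and 7.82 CPM (ENSRNOG00000015259), and the nearest outside was 4.34 CPM (ENSRNOG00000016119). Of the members, those that met the overlap rule most narrowly had a lowest D2 library above the highest D1 library by 0.00078 (ENSRNOG00000016308) and 0.0088 (ENSRNOG00000061731) log2 units, and missed most narrowly by a gene with a gap of -0.0090 (ENSRNOG00000056703).

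A single D2-MSN marker could be paired, Adora2a, which the rule set aside and which is thus not a member. It describes the libraries and does not check the label of the members themselves. Its level was 475 to 1017 CPM in the 9 D2 ketamine libraries (median 817) and 142 to 220 CPM in the 10 D1 ketamine libraries (median 185), and the groups did not overlap. In edgeR's quasi-likelihood test it was 2.14 ± 0.10 (SE) higher in D2 on the log2 scale, with an adjusted p of 2.76e-10. Rgs9 and Gad1, the paired markers of all MSNs, differed by 0.02 ± 0.07 and -0.03 ± 0.03. The paired markers of other interneurons, Nos1, Sst and Kit, were lower in D2 libraries by 1.82, 1.63 and 0.64.

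Some markers of glial and vascular cells were also higher in D2 libraries. Of 12 such genes analysed here (Gfap, Gja1, S100b, Mog, Pdgfra, Aif1, Tmem119, Flt1, Rgs5, Col1a1, Col3a1 and Kl), 4 were called higher in D2 among the ketamine libraries, namely Gja1 (0.39), Pdgfra (0.32), Flt1 (0.69) and Col3a1 (1.19), none was called lower, and 8 were not called, among them the ependymal and choroid plexus marker Kl (-0.29). Within proestrus 0 of the 12 were called (median 0.16), and within diestrus 6 were called higher (median 0.58). Their summed level was 136 to 244 CPM in D2 ketamine libraries (median 178), 127 to 176 in D1 ketamine (median 148), 147 to 309.8 in D2 saline (median 161) and 112 to 164 in D1 saline (median 143). None of the 12 was at 0 in any library. The part of these cells in the members' D2 enrichment was not tested beyond the values given with each result below.

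The first question was whether the D2 enrichment, fixed in saline rats, was found again in the 19 libraries of ketamine rats. It was, for the whole set: all 28 members were higher in D2 and all 28 were called at an adjusted p under 0.1 (edgeR's quasi-likelihood test, cycle stage and 2 surrogate variables in the model). Over all 13850 genes tested, 8.16% were called with D2 higher. The members' median log2 fold change was 0.92, against 0.00 over all genes tested, with a range of 0.52 to 1.81 and standard errors of 0.05 to 0.25. The highest adjusted p among members was 0.025, for ENSRNOG00000051948.

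In 3 members the difference was widest in both treatments. ENSRNOG00000014232 was at 137 to 233 CPM in D2 ketamine libraries and at 48.6 to 62.0 CPM in D1 ketamine libraries, so that even the lowest D2 library was 1.13 log2 units above the highest D1 library. Its fold change was 1.81 ± 0.06 (SE) on the log2 scale, a 3.51-fold difference, with an adjusted p of 6.56e-16. ENSRNOG00000049580 averaged 259 ± 63.0 CPM (SD, n = 9) in D2 and 74.0 ± 7.68 CPM (SD, n = 10) in D1 ketamine libraries. Its log2 fold change was 1.73 ± 0.08. ENSRNOG00000055673 averaged 135 ± 29.0 against 37.9 ± 5.54 CPM, a log2 fold change of 1.75 ± 0.10. These genes also had the 3 largest saline differences (2.08 for ENSRNOG00000049580, 2.07 for ENSRNOG00000014232 and 1.94 for ENSRNOG00000055673), and no D2 library of either treatment fell among the D1 libraries.

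The next members by saline difference came after a step. ENSRNOG00000011631, ENSRNOG00000022337, ENSRNOG00000008992, ENSRNOG00000028187 and ENSRNOG00000010531 had log2 fold changes of 1.26, 1.24, 1.29, 1.07 and 1.19 in ketamine libraries, with adjusted p-values from 4.37e-11 to 5.65e-06 in edgeR's test. Of these, ENSRNOG00000008992 had overlapping groups, with 15.6 to 48.0 CPM in D2 and 9.77 to 18.6 CPM in D1 ketamine libraries. ENSRNOG00000012302 averaged 523 ± 15.7 CPM (SD, n = 10) in D2 saline libraries and 472 ± 111 CPM (SD, n = 9) in D2 ketamine libraries, from 283 to 623 CPM, a wider spread. Its D1 ketamine libraries held 197 to 261 CPM, and it was still called (1.04 ± 0.06).

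Cd24 was at 22.5, 34.4, 20.7 and 17.7 CPM in the 4 proestrus D2 ketamine libraries and at 16.0, 28.3, 25.5, 17.0 and 36.4 CPM in the 5 diestrus ones. In D1 ketamine libraries it was at 11.0, 14.8, 10.0, 10.6 and 15.4 CPM in proestrus and at 11.0, 12.4, 10.3, 9.71 and 14.7 CPM in diestrus. The highest D1 library thus came close to the lowest D2 library without reaching it. The fold change was 1.00 ± 0.11 (SE) on the log2 scale, with an adjusted p of 1.11e-06 by edgeR.

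ENSRNOG00000006979 was at 2088 ± 404 CPM (SD, n = 9) in D2 and 1301 ± 102 CPM (SD, n = 10) in D1 ketamine libraries. It and ENSRNOG00000030877 (830 ± 136 against 518 ± 29.9 CPM) were near the lower edge of the set, with log2 fold changes of 0.61 ± 0.08 and 0.63 ± 0.05. In both genes the groups overlapped through a single D2 library, number 32, which held 1182 and 555 CPM. Among the other members of higher level, ENSRNOG00000016099 averaged 111 ± 17.9 CPM (SD, n = 9) in D2 and 64.3 ± 9.25 CPM (SD, n = 10) in D1 ketamine libraries, with overlapping groups and a log2 fold change of 0.78 ± 0.10. ENSRNOG00000051507, ENSRNOG00000017002 and ENSRNOG00000069578 had fold changes of 0.73 ± 0.06, 0.60 ± 0.05 and 0.84 ± 0.15, and their groups did not overlap. The smallest fold change of any member was that of ENSRNOG00000016308, 0.52 ± 0.11, with 16.7 to 47.9 CPM in D2 and 15.8 to 24.9 CPM in D1 libraries.

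**Figure D1:**
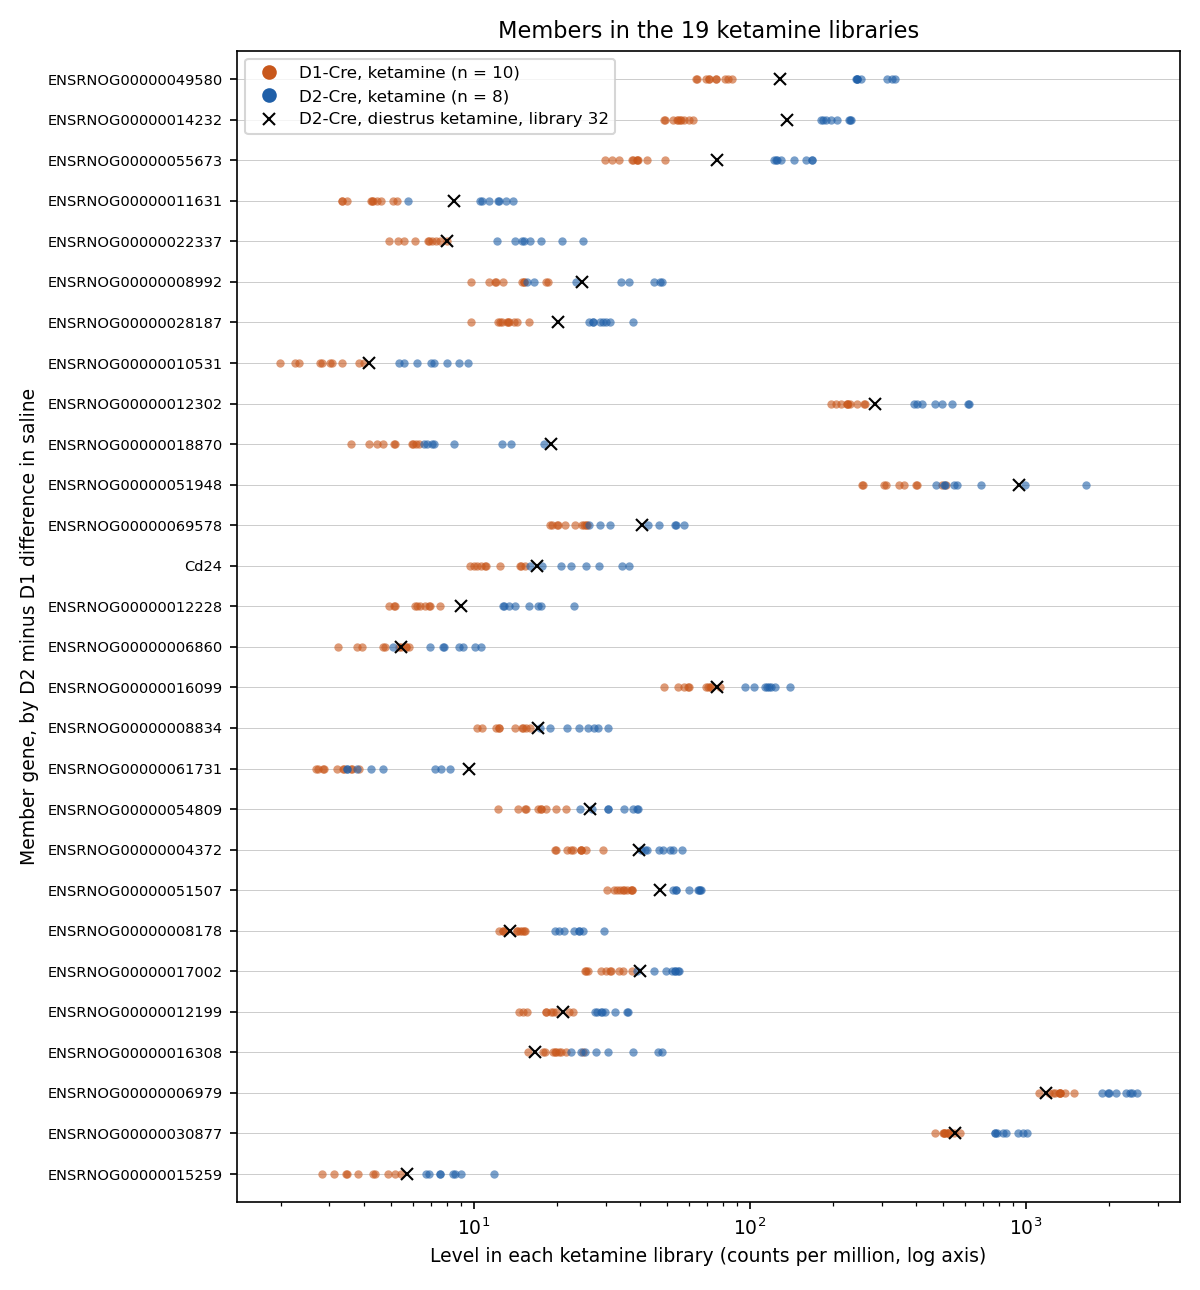
Level of each of the 28 members in each ketamine library, in CPM on a log axis, with members ordered by their saline difference. Orange points are the 10 D1 libraries, blue points 8 of the 9 D2 libraries, and the cross is D2 library 32. Every member's D2 libraries lie to the right of its D1 libraries on average, and library 32 lies between the groups or among the D1 libraries for many members.

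Read library by library, 18 of the 28 members kept every D2 ketamine library above every D1 ketamine library, as all 28 did in saline by the rule. Of the 10362 genes with a mean of at least 5 CPM in the ketamine libraries, 0.483% were separated in this way. Within proestrus 25 members were separated, against 2.46% of those genes, and within diestrus 22 were, against 2.35%.

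Within a single stage, with 4 or 5 libraries a side, most members still passed. In proestrus ketamine libraries 24 of 28 were called with D2 higher, where 2.4% of all 13339 genes tested were. The 4 that were not called were ENSRNOG00000061731 (0.40 ± 0.21, adjusted p = 0.407), ENSRNOG00000051948 (0.87 ± 0.35, adjusted p = 0.350), ENSRNOG00000006860 (0.51 ± 0.21, adjusted p = 0.280) and ENSRNOG00000018870 (0.54 ± 0.18, adjusted p = 0.154), all by edgeR. Except for ENSRNOG00000006860, proestrus D2 ketamine library 6 carried much of these differences. Without it the values were 0.21 for ENSRNOG00000061731, 0.49 for ENSRNOG00000051948 and 0.30 for ENSRNOG00000018870. For ENSRNOG00000006860 library 6 held 7.71 CPM, where its group ran from 5.09 to 8.83 CPM. By a 2-sided exact permutation test of the log2(CPM + 0.5) values taken alone, ENSRNOG00000051948 and ENSRNOG00000018870 reached p = 0.00794, the smallest that 4 against 5 libraries allow, since their groups did not overlap. The exact p was 0.0794 for ENSRNOG00000006860 and 0.0952 for ENSRNOG00000061731. In diestrus 27 of 28 were called, where 6.16% of 13358 genes were, and the exception was again ENSRNOG00000051948 (0.98 ± 0.32, adjusted p = 0.139; exact p = 0.0238 with 5 against 5). Whether the D2 to D1 difference depended on stage was tested directly in the ketamine libraries, and no member was called by edgeR or DESeq2, of 0% called over all genes. At an unadjusted p under 0.05 there was 1 member, against 3.96% of all genes: ENSRNOG00000016308, whose difference was 0.56 ± 0.17 larger in proestrus (adjusted p = 0.997, edgeR), or 0.35 without library 6.

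The size of the D2 to D1 difference was then set beside its saline value. Without any model, on log2(CPM + 0.5), the ketamine difference had a median of 0.91 over the members and ran from 0.57 to 1.82, and 17 of the 28 still stood at 0.8 or more. It was smaller than in saline for 25 members and larger for 3: ENSRNOG00000015259 (111% of the saline difference), ENSRNOG00000012228 (110%) and ENSRNOG00000004372 (100%). The median member kept 81.4% of its saline difference, and the least was kept by ENSRNOG00000006860, at 61.1%. The saline difference had to pass a threshold and the ketamine difference did not, so a lower value in ketamine is partly fixed by the choice of members and is not a test. The order of the members was similar in both treatments, with a Spearman correlation of 0.848 across the 28 members, which are not independent replicates.

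**Figure D2:**
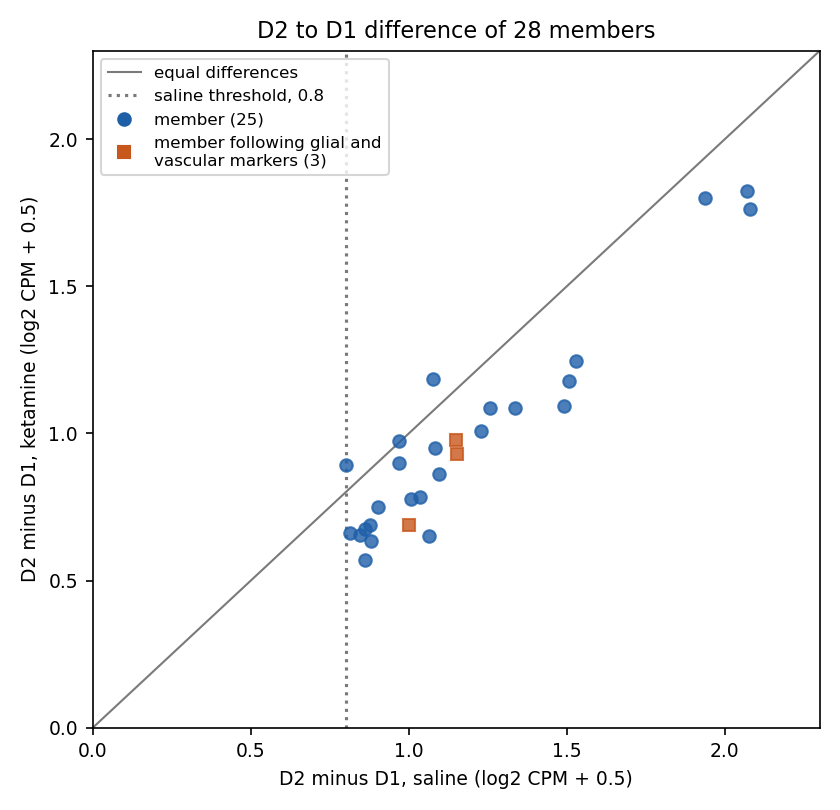
D2 minus D1 difference of each member in ketamine libraries (vertical axis) against that in saline libraries (horizontal axis), both in log2(CPM + 0.5). The dotted line is the threshold of 0.8 that chose the members in saline, and 25 of the 28 points lie below the line of equal differences.

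That change was also modelled as the interaction of ketamine with cell type over all 39 libraries. It called no member, by edgeR or by DESeq2, and 0% of 14129 genes. The members' interaction had a median of -0.06 on the log2 scale, where negative values mean a smaller D2 to D1 difference with ketamine, and 21 of the 28 were negative. With no surrogate variable in the model the median was -0.19 with 3 members positive. The saline libraries in this model are those that chose the members, so the lean to negative values is partly fixed by that choice. One member had an unadjusted p under 0.05, against 2.31% of all genes: ENSRNOG00000012228, which went the other way, at 0.41 ± 0.13 (adjusted p = 1.00, edgeR). Its value depended on the model, at 0.17 with no surrogate variable, 0.18 with 1 and 0.17 with blocks of library numbers. It was at 15.2 ± 1.47 CPM (SD, n = 10) in D2 saline and 15.0 ± 3.94 CPM (SD, n = 9) in D2 ketamine libraries, and at 7.03 ± 1.45 and 6.20 ± 0.87 CPM (SD, n = 10 each) in D1.

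One D2 library stood apart in the member genes and is given here before the treatment contrasts that use it. For each library, the members' log2 values were centred on the midpoint between their D1 and D2 saline means and averaged. All D1 libraries were negative, from -0.82 to -0.41, and all D2 libraries were positive. For the saline libraries this is largely fixed by the choice of members and of the midpoint. The D1 ketamine libraries, which took no part in either, ran from -0.61 to -0.44. Diestrus D2 ketamine library 32 scored 0.08, with 12 of 28 members above their midpoint, whereas the other 4 libraries of its group scored 0.33 to 0.71 and the proestrus D2 ketamine libraries 0.36 to 0.69. It held the lowest level of all 19 D2 libraries for 17 members. For 21 members it was still above every D1 ketamine library. Adora2a, which is not a member, was at 475 CPM in this library and at 774 to 1017 CPM in the other 4. The glial and vascular markers summed to 244 CPM there, against 153 to 212 in the other 4. Gfap was at 45.1 CPM against 19.2 to 25.4. Mog (12.6 CPM), Aif1 (1.22), Tmem119 (1.67) and Kl (3.92) lay within the range of the other 4 libraries, and the rest of the markers lay above it. Without library 32, all 28 members were again called between D2 and D1 in ketamine libraries, 23 rather than 18 had groups that did not overlap (0.821% of 10351 genes), the median difference was 0.93, and 25 members still had a smaller difference than in saline. On CPM scaled by TMM factors, 16 rather than 18 members had groups that did not overlap (0.386% of 10353 genes).

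**Figure D3:**
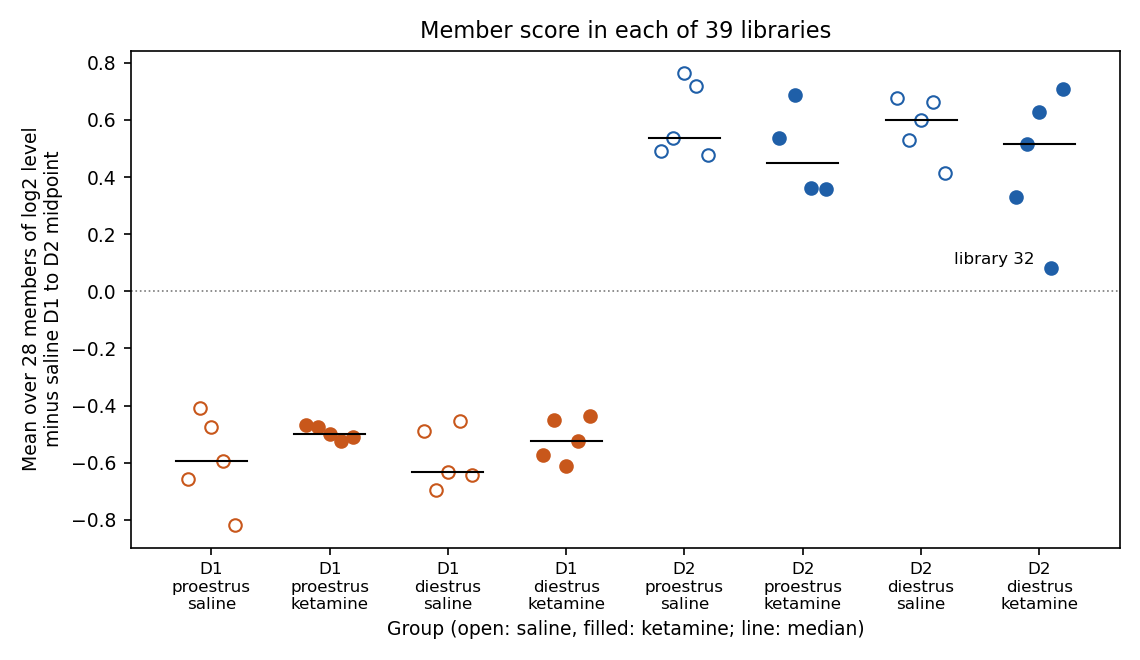
Mean over the 28 members of the log2 level minus the midpoint of the saline D1 and D2 means, for each of the 39 libraries in its group. Open points are saline and filled points ketamine, and lines are medians. D1 libraries lie between -0.82 and -0.41, D2 libraries above 0, and library 32 is the D2 library closest to 0. The separation of the saline libraries is largely fixed by the choice of members.

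Among the D2 libraries, the members did not all vary together. Many were correlated with Adora2a: over the 19 D2 libraries, 18 members were positively correlated with it at an adjusted p under 0.05 (permutation test with 100000 permutations, Benjamini-Hochberg over 56 relations, 28 members by 2 measures). The lowest r among the 18 was 0.56, and 10.3% of the 10366 genes with a mean of at least 5 CPM reached it. The closest was ENSRNOG00000006979, with r = 0.96 and Spearman's rho = 0.89, followed by ENSRNOG00000049580 (r = 0.94, rho = 0.87) and ENSRNOG00000055673 (r = 0.92, rho = 0.84). By rho, 13 of the 18 also passed. Libraries 32 and 16 lie farthest from the median of Adora2a, and without them 10 of the 18 relations remained at an unadjusted permutation p under 0.05, while the other 8 rest on those libraries. ENSRNOG00000006979 was among those that held, with r = 0.90 over the 17 libraries left. Of these 19 libraries, 10 are the saline libraries whose values chose the members. In the 9 ketamine libraries alone, 12 of the 28 members were positively correlated with Adora2a at an adjusted p under 0.05 by exact permutation of r, and 2 of them also by rho. The lowest r among the 12 was 0.81, reached by 5.34% of 10390 genes, and library 32, described above as low in both Adora2a and the members, is among these 9. Cd24 was not among the 18 (r = 0.39, rho = 0.33, adjusted p = 0.193 and 0.318, permutation test).

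A further 3 members followed the glial and vascular markers instead. Against the mean log2 level of the 12 markers over the 19 D2 libraries, ENSRNOG00000018870 had r = 0.89 and rho = 0.69, ENSRNOG00000061731 r = 0.86 and rho = 0.65, and ENSRNOG00000051948 r = 0.85 and rho = 0.64. An r of 0.85 or more was reached by 0.792% of 10360 genes. The adjusted permutation p of r was at most 0.00035 and that of rho at most 0.0205. Without libraries 7 and 21, the farthest from the median of the marker score, r was 0.83, 0.80 and 0.74 in that order. It was 0.89, 0.86 and 0.90 after subtracting the group means, and 0.89, 0.86 and 0.88 after subtracting the means of blocks of 8 consecutive library numbers, the only batch-like label. In the 9 ketamine libraries alone, which the rule did not use, r was 0.90, 0.89 and 0.78 (adjusted p = 0.0219, 0.0219 and 0.0462 by exact permutation), while rho did not pass, with adjusted p-values of 0.111 to 0.162 by exact permutation. In these 9 libraries 3.16% of 10384 genes had an r of 0.78 or more. The same 3 members had r between -0.30 and -0.28 with Adora2a. Negative relations with the marker score depended on the measure and the libraries. Over all 19 D2 libraries ENSRNOG00000008834 passed by both measures (r = -0.57, rho = -0.65, adjusted p = 0.0317 and 0.0205, permutation test) and ENSRNOG00000008992 by rho only (r = -0.48, rho = -0.63, adjusted p = 0.0942 and 0.0218, permutation test). Without libraries 7 and 21, 8 members were negative at an unadjusted permutation p under 0.05, with ENSRNOG00000012302 at r = -0.76. In the 9 ketamine libraries 0 members were negative at an adjusted p under 0.05 by exact permutation. These relations were looked for after the members' values had been seen.

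**Figure D4:**
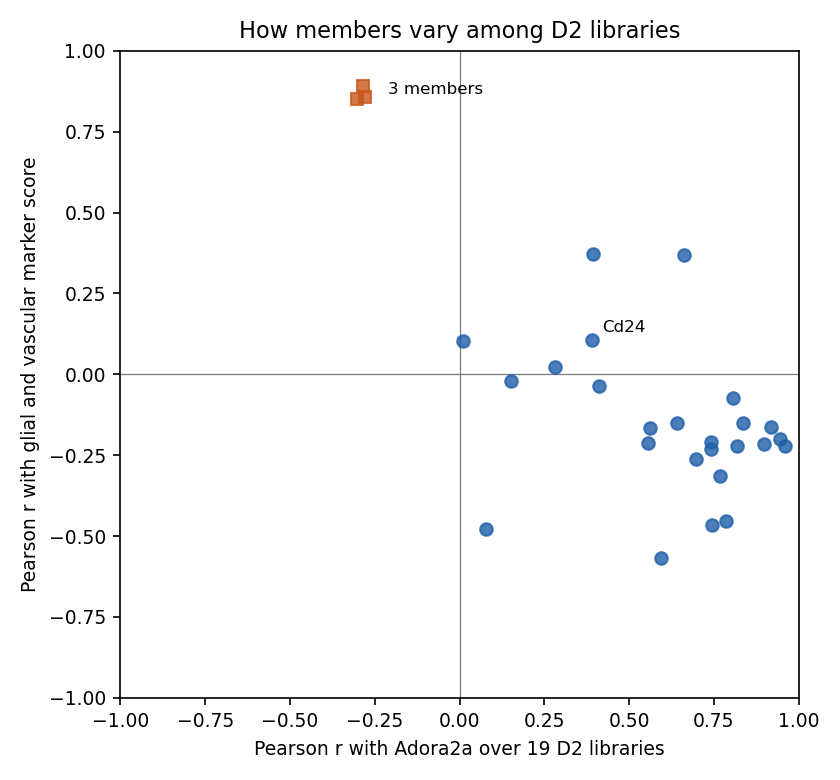
Pearson correlation of each member with Adora2a (horizontal axis) and with the mean log2 level of 12 glial, vascular and ependymal markers (vertical axis) over the 19 D2 libraries. The 3 orange squares, at r of 0.85 to 0.89 with the markers and below 0 with Adora2a, lie apart from the other 25 members.

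The values of these 3 genes show the same split between libraries. ENSRNOG00000051948 was at 1649, 509, 688 and 561 CPM in proestrus D2 ketamine libraries 6, 22, 30 and 38, and at 473, 992, 549, 944 and 505 CPM in diestrus libraries 8, 16, 24, 32 and 40. The high libraries, 6, 16 and 32, are the 3 D2 ketamine libraries with the highest marker score. In saline its high D2 libraries were 7 (1489 CPM) and 21 (1359 CPM), the D2 saline libraries with the highest marker score, and the other 8 held 464 to 742 CPM. ENSRNOG00000018870 was at 12.6 to 19.0 CPM in libraries 6, 16 and 32 and at 6.59 to 13.7 CPM in the other 6 D2 ketamine libraries, with 3.59 to 6.34 CPM in D1 ketamine. ENSRNOG00000061731 was at 7.25 to 9.64 CPM in the first and 3.46 to 7.59 CPM in the second, with 2.67 to 3.85 CPM in D1. For both of these genes the upper end of the second range is library 24, the next library by marker score.
Without libraries 6, 16 and 32, the D2 minus D1 ketamine difference was 0.60 rather than 0.93 for ENSRNOG00000018870, 0.61 rather than 0.98 for ENSRNOG00000051948 and 0.40 rather than 0.69 for ENSRNOG00000061731. For the other 25 members the median difference was 0.99 rather than 0.90. Those libraries were left out after the values had been seen, and they are the 3 highest D2 ketamine libraries for ENSRNOG00000051948 and 3 of the 4 highest for the other two, so the smaller differences of these 3 genes without them are fixed by their choice. Library 32, also left out, held the lowest level of all 19 D2 libraries for 17 of the other 25 members. Their larger median is thus partly fixed by that choice as well. The part of glial and vascular cells in the enrichment of the 3 genes that followed the markers was not tested.

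Ketamine against saline within a cell type changed no member past the threshold. The study made this comparison within each cell type and stage by DESeq2 and reported differentially expressed genes in each, most of them in proestrus D1-MSNs. The stages are pooled first here and then taken apart. In D2 libraries over both stages, edgeR called 0 of 28 members and 0% of 13881 genes, and DESeq2 called 0 members. The members' log2 fold changes ran from -0.20 to 0.20 with a median of -0.00, 14 higher and 14 lower, and a median SE of 0.11. With no surrogate variable 3 members were higher and the median was -0.14, and with blocks of library numbers in their place 2 were higher and the median was -0.14, in both cases with no member called. One member had an unadjusted p under 0.05, against 3.75% of all genes. It was ENSRNOG00000012228, higher with ketamine by 0.20 ± 0.07 (adjusted p = 1.00, edgeR), and its sign depended on the model: -0.03 with no surrogate variable. The next by p were ENSRNOG00000012199 (-0.07 ± 0.07), ENSRNOG00000006860 (-0.15 ± 0.14), ENSRNOG00000016308 (0.14 ± 0.15) and ENSRNOG00000015259 (0.10 ± 0.11), with unadjusted p-values of 0.312 to 0.402 in edgeR's test. The sign of ENSRNOG00000016308 also depended on the model, at -0.13 with no surrogate variable, and turned without library 24, 37 or 40.

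Within a stage the picture was the same. In D2 libraries edgeR called 0 of 28 members in proestrus, where 0 members had an unadjusted p under 0.05 (3.41% of all genes), and 0 in diestrus, where 1 member did (2.64% of all genes), ENSRNOG00000028187 (-0.21 ± 0.09). Called genes made up 0% of those tested in each, and DESeq2 also called 0 members in each. The largest change in each was that of ENSRNOG00000051948, at 0.31 ± 0.52 (SE) in proestrus and -0.32 ± 0.50 (SE) in diestrus, smaller than its error, and in both stages its sign turned when single libraries were left out. The interaction of ketamine with stage in D2 libraries called 0 members and 0% of genes by edgeR, and 1 member, ENSRNOG00000028187, had an unadjusted p under 0.05 (0.32 ± 0.11, adjusted p = 1.00), against 1.75% of all genes. Its sign was positive, meaning a higher ketamine change in proestrus, for 21 members and negative for 7, with a median of 0.11.

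In D1 libraries, where the members were lower, ketamine again called none of them by edgeR or DESeq2. With both stages together 19 members were higher with ketamine and 9 lower, with a median log2 change of 0.04. Over both stages 0% of 13593 genes were called and 2 members had an unadjusted p under 0.05 (2.91% of all genes), ENSRNOG00000061731 (0.38 ± 0.13) and ENSRNOG00000012228 (-0.21 ± 0.09). In diestrus 0.0227% of genes were called, none a member, and 3 members had an unadjusted p under 0.05 (2.66% of all genes), ENSRNOG00000069578 (0.21 ± 0.08), ENSRNOG00000016308 (0.19 ± 0.08) and ENSRNOG00000049580 (0.12 ± 0.05). In proestrus 0.00759% of genes were called, none a member, and 4 members had an unadjusted p under 0.05 (5.8% of all genes). These were ENSRNOG00000018870 (0.52 ± 0.16), ENSRNOG00000061731 (0.54 ± 0.20) and ENSRNOG00000051948 (0.38 ± 0.16), the 3 members that followed the marker score in D2 libraries, and ENSRNOG00000055673 (-0.16 ± 0.06), with adjusted p-values of 0.751 to 0.847 in edgeR's test. Beside them, the mean log2 level of the 12 glial and vascular markers was 2.38 to 2.47 in the 5 proestrus D1 ketamine libraries and 2.03 to 2.297 in the 5 proestrus D1 saline libraries, without overlap. The part of these markers in the 3 values was not tested.

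**Figure D5:**
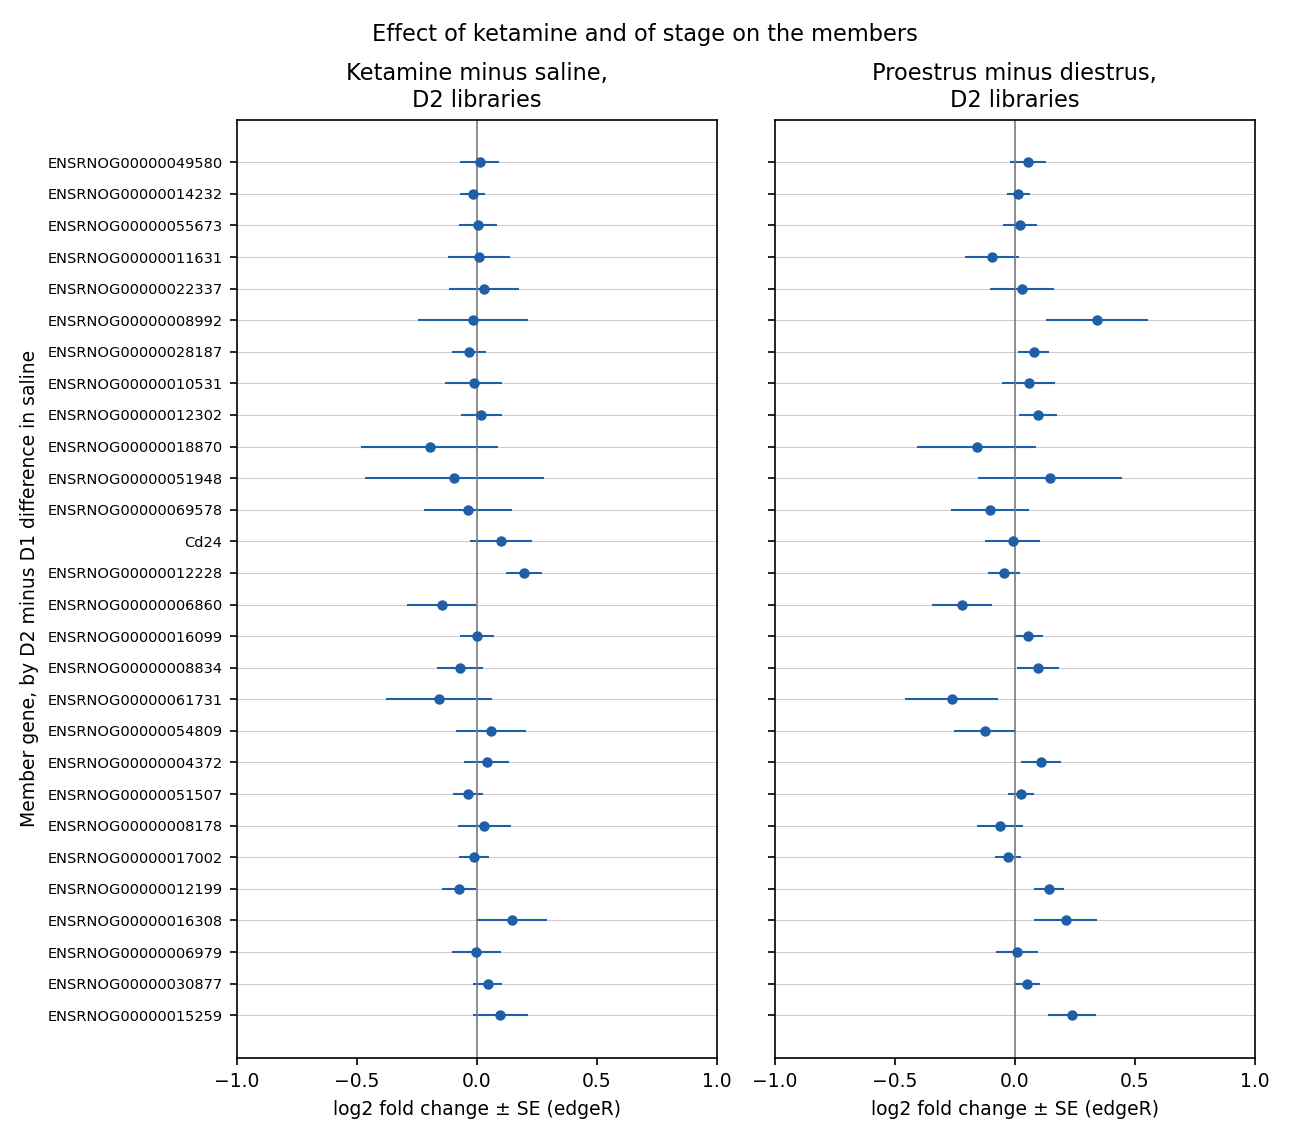
Log2 fold change ± SE (edgeR) of each member in D2 libraries for ketamine against saline, over both stages (left, 19 libraries), and for proestrus against diestrus, over both treatments (right, 19 libraries). Changes lie between -0.20 and 0.20 on the left and between -0.26 and 0.34 on the right, and none passed an adjusted p under 0.1.

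Cycle stage likewise moved no member past the threshold. Over both treatments in D2 libraries, edgeR called 0 of 28 members and 0% of 13881 genes, and DESeq2 called 0 members. Positive changes denote higher values in proestrus: the median was 0.03, the range -0.26 to 0.34, and 18 members were higher. At an unadjusted p under 0.05 there were 2 members, where 7.86% of all genes were under it: ENSRNOG00000015259 (0.24 ± 0.10, adjusted p = 0.614, edgeR) and ENSRNOG00000012199 (0.14 ± 0.06, adjusted p = 0.619, edgeR). ENSRNOG00000008992 was at 0.34 ± 0.21, and at 0.15 without library 39, the shallowest.

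Saline and ketamine libraries gave the same count of 0 when taken apart. The saline libraries are those that chose the members over both stages, so the count of 0 there is partly fixed by that choice. In D2 saline libraries 1 member had an unadjusted p under 0.05 (4.09% of all genes), ENSRNOG00000054809, lower in proestrus by 0.35 ± 0.14. In D2 ketamine libraries 5 members did (3.45% of all genes), all higher in proestrus: ENSRNOG00000028187 (0.23), ENSRNOG00000015259 (0.41), ENSRNOG00000016308 (0.37), ENSRNOG00000012199 (0.23) and ENSRNOG00000051948 (0.53), with an adjusted p of 0.998 each in edgeR's test. Library 32 is on the diestrus side of that contrast. Without it 3 members were under 0.05 and the median change over members went from 0.06 to 0.00. Library 6 is on the proestrus side, and without it 4 of the 5 values were lower by over 1.5 times, at 0.13 for ENSRNOG00000015259, 0.20 for ENSRNOG00000016308, 0.06 for ENSRNOG00000012199 and 0.12 for ENSRNOG00000051948. In D1 saline libraries 3 members were under 0.05 (3.96% of all genes), namely ENSRNOG00000069578 (0.24), ENSRNOG00000016308 (0.23) and ENSRNOG00000049580 (0.13), whose diestrus libraries also serve as the saline arm of the D1 diestrus ketamine contrast. In D1 ketamine libraries 2 were (3.9% of all genes), ENSRNOG00000018870 (0.32) and ENSRNOG00000017002 (-0.16), and in each of these 4 contrasts 0% of genes were called by edgeR and DESeq2 called 0 members.

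The members can be set beside the paired genes of dopamine and adenosine signaling to cAMP, although only Cd24 among them could be looked up by name and it is not on the list. Of 52 genes on it, 8 could be paired, and in the ketamine libraries 4 were called higher in D2, 2 lower, and 2 were not called. Besides Adora2a, the higher ones were Rgs2 (0.24 ± 0.06), Rgs8 (0.16 ± 0.04) and Adora1 (0.11 ± 0.04), where Rgs genes encode regulators of G protein signaling and Adora1 the A1 adenosine receptor. Rgs4 (-0.36 ± 0.10) and Gnaz (-0.19 ± 0.04), the latter a Gi-family alpha subunit, were lower, and Adcy5, the main striatal adenylyl cyclase, was at -0.11 ± 0.05 with an adjusted p of 0.138 by edgeR. Every difference on this list other than that of Adora2a was smaller than the smallest among the members. The members were chosen for large differences in saline, so this is largely fixed by their choice and is not a result about the list. On a list of estrogen and progesterone genes, 2 of the 3 that could be paired were tested: Cyp19a1, which encodes aromatase, the enzyme that makes estradiol, was lower in D2 by 1.81 ± 0.19 (adjusted p = 2.29e-07, edgeR), and Nrip1, a nuclear receptor corepressor, was at -0.15 ± 0.06 (adjusted p = 0.137, edgeR).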

How the data were processed

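RiboTag IP libraries from 39 rats were analysed. The authors trimmed reads with fastp 0.23.4, checked them with FastQC 0.12.1, quantified transcripts with Salmon 1.10.2 (mRatBN7.2) and used tximport to get gene-level estimates. What was deposited is a table of expected counts per gene, already whole and without any scaling between libraries. CPM used raw library totals and a pseudocount of 0.5. For each comparison, genes were filtered by edgeR's filterByExpr (minimum count 10), libraries were scaled by TMM factors, and a robust quasi-likelihood test in edgeR was run with 2 svaseq surrogate variables and Benjamini-Hochberg adjustment over all genes tested, called under 0.1 (edgeR 4.0.16 with sva 3.50.0 and limma 3.58.1 under R 4.3.3; DESeq2 1.42.0 as an alternative). The steps were tested on simulated data. Rats are separate animals, so p-values measure spread between rats. Counts are not corrected for transcript length, and reads shared between similar genes could be split by Salmon. Total counts of 16118050 or more, but for library 39, limit precision mostly for members under 10 CPM.

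The members and lists were chosen with earlier results of these data known. Members named were the 15 with the largest saline differences and the 15 with the highest D2 saline CPM, those not called between D2 and D1, the 5 with the lowest p for ketamine and for stage, and 3 on each side of the thresholds; other members at an unadjusted p under 0.05, and the largest ketamine change within a stage, were named after their values were seen. The correlations, the runs without the 3 D2 ketamine libraries highest in markers, the shares of all genes beside correlations and the TMM overlap counts were added after seeing the data. Alternatives were fewer surrogate variables, DESeq2 and its size factors, blocks of 8 library numbers, other thresholds and each library left out. Input libraries were not used here. Symbols came from the identifier pairs in parts of the authors' tables, whose comparison columns were not used. One marker gene is not reported here and was left out of the marker score.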

Additional observations from a re-analysis of the deposited data

Results flagged for a closer look

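In groups of 4 or 5 libraries, a member's highest or lowest library was tested for a gap to the nearest other library that is large against the range of its group (Dixon's criterion). Of 224 such groups, 28 members by 8 groups, 19 (8.48%) held a library that stood apart, where chance gives about 1 in 20.

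The 3 members that followed the glial and vascular markers stood apart in the libraries with the most of those markers. ENSRNOG00000051948 was at 1649 CPM in proestrus D2 ketamine library 6 (509 to 688 in the other 3), at 1489 CPM in diestrus D2 saline library 7 (464 to 603 in the other 4) and at 1359 CPM in proestrus D2 saline library 21 (511 to 742). ENSRNOG00000018870 was at 17.9, 22.3 and 17.5 CPM in the same libraries 6, 7 and 21, where the others of each group held 6.77 to 7.16, 6.57 to 9.71 and 8.19 to 10.4 CPM. ENSRNOG00000061731 was at 8.22 CPM in library 6, against 3.46 to 4.23 in the other 3.

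Proestrus D2 ketamine library 22, the deepest library, was highest for the 3 members with the widest D2 difference. It held 315 CPM of ENSRNOG00000049580 (243 to 244 in the other 3), 233 CPM of ENSRNOG00000014232 (180.4 to 188) and 168 CPM of ENSRNOG00000055673 (122 to 125). Diestrus D2 saline library 39, the shallowest, was lowest in its group at 113 CPM of ENSRNOG00000055673 (153 to 160 in the other 4), 51.7 CPM of ENSRNOG00000051507 (62.8 to 65.9) and 6.68 CPM of ENSRNOG00000011631 (12.1 to 13.8). The part of depth in these values was not tested.

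In D1 libraries, ENSRNOG00000055673 was low at 29.8 CPM (37.5 to 39.2) and ENSRNOG00000030877 high at 578 CPM (503 to 521) in proestrus ketamine library 34. In proestrus saline library 1, ENSRNOG00000010531 was low at 1.32 CPM (3.03 to 3.63) and ENSRNOG00000054809 high at 20.5 CPM (12.8 to 15.0). ENSRNOG00000010531 was high at 3.67 CPM in diestrus saline library 19 (2.59 to 2.86), and ENSRNOG00000011631 low at 3.33 CPM in diestrus ketamine library 36 (4.26 to 4.62).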

How the results depend on the processing

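Leaving out each library in turn, 28 to 28 members were called between D2 and D1 in ketamine libraries, 22 to 26 in proestrus and 25 to 28 in diestrus, and 0 in each treatment, stage and interaction comparison, as also under each other alternative, DESeq2 included. The rule itself kept 26 to 33 members with a saline library left out, 18 with a saline difference of at least 1 and 46 with at least 0.6. Of the 18, 18 were called in ketamine, 14 in proestrus and 17 in diestrus, and of the 46, 46, 38 and 43. The sign of small ketamine changes in D2 libraries depended on the model. The members' median, -0.00 as reported, was -0.14 with no surrogate variable, -0.15 with 1 and -0.14 with blocks of library numbers, and -0.20 to 0.013 with a library left out, where libraries 40 (-0.20), 37 (-0.14) and 24 (-0.12) mattered most. The median interaction with cell type, -0.06, was -0.19, -0.20 and -0.21 under the first 3 of these. ENSRNOG00000012228 (0.20) was -0.026, -0.018 and -0.063 under them and -0.10 to 0.24 over all alternatives, the lowest without library 40, with 0.026 and 0.0075 without libraries 24 and 37. ENSRNOG00000016308 (0.14) was -0.13, -0.11 and -0.18, and -0.22, -0.08 and -0.03 without libraries 40, 37 and 24, and 0.080 to 0.24 without library 13, 15, 22, 23 or 32. The next by p in that contrast moved by over 1.5 times under the same 3 models and without libraries 24, 37 and 40, over ranges of -0.22 to -0.031 (ENSRNOG00000012199, the highest without library 31), -0.32 to -0.095 (ENSRNOG00000006860, the highest without libraries 22 and 5) and 0.0086 to 0.16 (ENSRNOG00000015259, the highest without library 15, and 0.037 without library 6). The ketamine change of ENSRNOG00000051948 within D2 proestrus (0.31) was -0.11 with blocks and -0.28 to 0.71 with a library left out, negative without libraries 5 and 6, and within D2 diestrus (-0.32) it was 0.016 with blocks and -0.51 to 0.303 with a library left out, positive without libraries 7 and 40. That of ENSRNOG00000028187 in D2 diestrus (-0.21) was -0.34, -0.33 and -0.36 under the 3 models. In stage contrasts, ENSRNOG00000012199 over both treatments was 0.089 without library 32, ENSRNOG00000051948 in D2 ketamine 0.32, 0.32 and 0.35 under the 3 models, and ENSRNOG00000054809 in D2 saline -0.20 and -0.22 without libraries 7 and 21. In D1 diestrus, ketamine changes were 0.14 without library 4 (ENSRNOG00000069578) and 0.068 without library 11 (ENSRNOG00000049580), and D1 saline stage changes were 0.13 without library 1 (ENSRNOG00000069578), 0.12 with 1 surrogate variable and 0.14 with blocks (ENSRNOG00000016308), and 0.035 with 1 surrogate variable and 0.021 without library 11 (ENSRNOG00000049580). ENSRNOG00000061731 in proestrus, D2 against D1, was 0.24 and 0.25 without libraries 2 and 22. The cause was not tested. Within stages, ENSRNOG00000018870 and ENSRNOG00000051948 were called under some alternatives. No library number occurs in more than 1 group, so the labels pair no libraries by number. The numbers run in sets of 8 with 1 library per group, with number 14 not analysed here, and the fit with these sets as blocks called 28, 23 and 25 members between D2 and D1 in ketamine, proestrus and diestrus, and 0 elsewhere. Depth limits the members under 10 CPM most.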
